A study of Rattus norvegicus with 9 samples.

Results

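The miR-130 and miR-301 family was followed in rat cornea through 5 mature miRNAs out of 765 listed, rno-miR-130a-3p, rno-miR-130b-3p, rno-miR-130b-5p, rno-miR-301a-3p and rno-miR-301a-5p, written below without the rat prefix. They were taken by name, and they were chosen because they moved in different directions in the grafts. Their differences between groups are therefore described with values and errors and without p-values, and where a fit over all miRNAs called a member, the call is given as a description and supports nothing. The series holds 3 small RNA libraries of allograft cornea, 3 of isograft cornea and 3 of normal cornea, all from Wistar rats labelled as 6 weeks of age. By the meaning of the words, the donor differs genetically from the recipient in an allograft and matches it in an isograft. The labels give neither the donor strain nor the time after surgery, and all grafts carry the Wistar label. A library is called by its group with the 12, 34 or 56 of its title. Whether replicates stem from different animals is not stated, so p-values measure the spread between libraries, which may be technical.

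A microRNA is cut from a hairpin precursor that yields a 5p and a 3p strand, or arm. One strand is loaded onto an Argonaute protein and pairs with messenger RNAs mainly through its seed, bases 2 to 8. The family is defined by the seed of its 3p arms, so its members can address the same sites from separate genes. In human endothelial cells miR-130a is known to hold down the antiangiogenic homeobox proteins GAX and HOXA5. In mouse T cells miR-301a is known to be induced by cytokines and to promote the Th17 fate. In human cells miR-301a is known to raise NF-kB activity by repressing its inhibitor NKRF.

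Mature sequences of 4 of the 5 members were found by name in the RefSeq table of the rat assembly GRCr8, and miR-301a-3p is named only. They are shown to compare seeds between arms and genes. Capitals mark bases 2 to 8. miR-130a-5p, miR-301b-3p and miR-301b-5p are not members, and are given because they are other arms of the family's precursors or carry its seed.
miR-130a-3p: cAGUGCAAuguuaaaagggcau
miR-130b-3p: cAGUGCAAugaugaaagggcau
miR-130b-5p: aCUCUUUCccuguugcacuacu
miR-301a-5p: gCUCUGACuuuauugcacuac
miR-130a-5p: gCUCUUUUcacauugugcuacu
miR-301b-3p: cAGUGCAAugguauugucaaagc
miR-301b-5p: gCUCUGACuagguugcacuacu

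Of the 765 listed miRNAs, 690 had a sequence in that table and 3 carried the seed AGUGCAA at bases 2 to 8. These were miR-130a-3p, miR-130b-3p and miR-301b-3p. miR-301a-3p had no sequence in that table, so its seed was not compared. The Mir301a hairpin holds AGUGCAA 1 time, at its bases 62 to 68. Counted from 1 at the 5′ end, miR-130b-3p differs from miR-130a-3p by 2 substitutions, U11A and A13G, and is identical at the other 20 positions. How reads matching several miRNAs were assigned is not given in the sources used here, so the division of reads between such close members is uncertain. Among the 5p arms, miR-301a-5p and miR-301b-5p share the seed CUCUGAC, and miR-130a-5p and miR-130b-5p each carry another. miR-130b-5p and miR-301a-5p were identical at 15 of 21 positions.

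The genes lie on chromosomes 3, 10 and 11 in GRCr8, which is not the build rn6 named for the deposited data. Mir130a is at chr3:90229228-90229315 on the minus strand, and Mir301a is at chr10:72422599-72422698 on the plus strand. Mir301b and Mir130b are neighbours on the plus strand, at chr11:97384033-97384110 and chr11:97384380-97384461, with 269 bases between the hairpins. In the RefSeq gene table Mir301a overlaps the genes Ska2 and Prr11, and the Mir301b and Mir130b hairpins overlap 1 gene, 2610318N02Rikl. Mir130a overlaps the hairpin gene Mir3590 on the opposite strand. miR-3590-3p was at 0.273 RPM or less in every library, and miR-3590-5p was listed at 0 in all 9. The Mir130b hairpin is shown because its arms are compared below, with the 5p arm and the 3p arm in capitals.
Mir130b: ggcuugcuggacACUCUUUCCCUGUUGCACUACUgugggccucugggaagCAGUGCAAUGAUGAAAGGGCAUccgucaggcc

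Levels are given in RPM, the read number of a miRNA relative to a library total of 11001459 to 12153889 reads. Of these reads 26.4% to 46.3% fell on listed miRNAs in allografts, 36.8% to 54.5% in isografts and 46.6% to 65.6% in normal corneas, so RPM also depends on the other reads of a library. The value of 1 read was 0.0823 to 0.0909 RPM, and a count of 3 reads was 0.247 to 0.273 RPM. The corneal epithelial miRNA miR-184 was present in every library, at 24753 to 54480 RPM in allografts, 131748 to 143730 RPM in isografts and 214371 to 339752 RPM in normal corneas. In these whole corneas, fewer cells of a type and less RNA per cell cannot be told apart.

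Members were few among corneal miRNAs, and only miR-130a-3p and miR-130b-5p passed the abundance filter of 5 RPM in at least 3 libraries. Passing rested on 9 of 9 libraries for miR-130a-3p and on 8 of 9 for miR-130b-5p. The other 3 members stayed below it, the closest being miR-130b-3p with 1 library at or above 5 RPM. In normal corneas the order by mean level was miR-130a-3p, miR-130b-5p, miR-301a-5p, miR-130b-3p and miR-301a-3p, and miR-130a-3p ranked at place 130 of 765. The values of miR-301a-5p and miR-130b-3p overlapped there, while the other neighbours in that order did not.

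**Figure D1:**
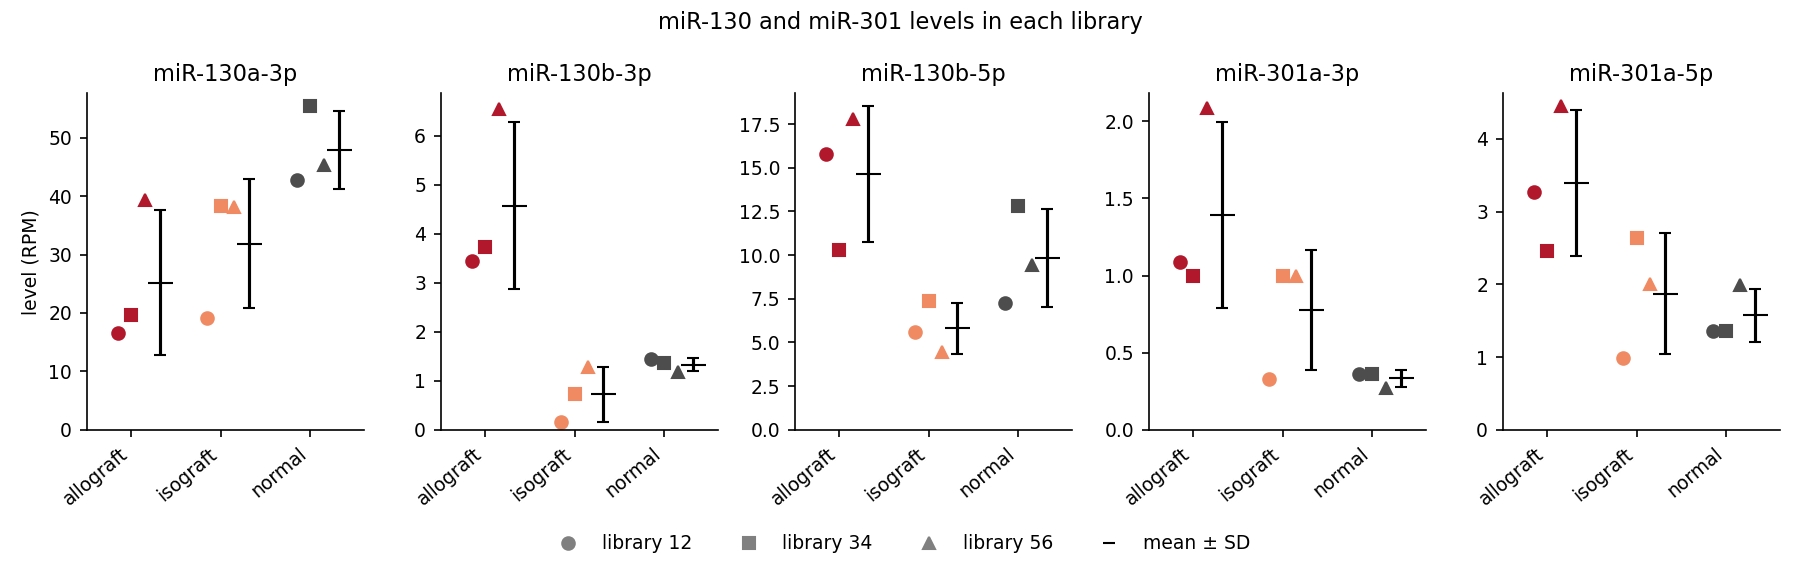
Level of each member in RPM (vertical axis, linear, from 0, its own scale per panel) by group. Symbols are single libraries, and the bar is the mean with its SD (n = 3). All grafts lie below all normal corneas for miR-130a-3p, while the allografts lie above all normal corneas for miR-130b-3p, miR-301a-3p and miR-301a-5p.

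miR-130a-3p, the 3p arm with the most reads in the family, lay below normal corneas in every graft in RPM. It was at 16.5, 19.6 and 39.3 RPM in allografts 12, 34 and 56, at 19.2, 38.3 and 38.2 RPM in isografts 12, 34 and 56, and at 42.8, 55.4 and 45.3 RPM in the normal corneas. No graft reached the lowest normal cornea, and allograft 56 and 2 isografts lay just below it. The means were 25.2 RPM ± 12.4 in allografts, 31.9 RPM ± 10.99 in isografts and 47.8 RPM ± 6.69 in normal corneas (SD, n = 3 each). On the log2(RPM + 1) scale, which understates changes of low miRNAs, the difference was -0.99 (SE 0.41) for allografts against normal corneas and -0.63 (SE 0.41) for isografts against normal corneas, which was not called. Allografts and isografts overlapped, with a difference of -0.36 (SE 0.41). The other arm of the same precursor, miR-130a-5p, which the choice of members did not use, was at 1.36, 0.364 and 1.64 RPM in allografts, 1.23, 0.727 and 1.45 RPM in isografts and 2.81, 1.999 and 1.27 RPM in normal corneas. Its groups overlapped, and none of its differences passed (exact permutation tests, two-sided p = 0.3 for allografts against normal corneas and p = 0.2 for isografts against normal corneas, adjusted p = 0.36 each over 6 tests). A design of 3 against 3 cannot give a p below 0.1.

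miR-130b-3p carries the same seed and was higher in allografts. It was at 3.45, 3.73 and 6.54 RPM in allografts 12, 34 and 56, at 0.165, 0.727 and 1.27 RPM in isografts and at 1.45, 1.36 and 1.18 RPM in normal corneas. All allografts lay above every isograft and every normal cornea, and isografts overlapped normal corneas. The lowest value, in isograft 12, stands for 2 reads. Mean levels were 4.57 RPM ± 1.71 in allografts, 0.721 RPM ± 0.554 in isografts and 1.33 RPM ± 0.138 in normal corneas, from 151, 24 and 44 reads. The ratio of mean levels was 3.43 for allografts over normal corneas, 0.541 for isografts over normal corneas and 6.34 for allografts over isografts. Without isograft 56 the isograft ratio was 0.335 and the ratio of allografts over isografts was 10.3. Without isograft 12 these ratios were 0.750 and 4.58. The matching differences on the log2(RPM + 1) scale were 1.22, -0.49 and 1.71, with pooled within-group SDs of 0.30, 0.35 and 0.45.

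miR-130b-5p, the other arm of that hairpin, was lowest in isografts. It was at 15.8, 10.3 and 17.8 RPM in allografts, 5.59, 7.36 and 4.45 RPM in isografts and 7.26, 12.8 and 9.45 RPM in normal corneas. Allografts lay above every isograft, but allograft 34 fell within the range of normal corneas, and isograft 34 lay just above normal cornea 12. The means were 14.6 RPM ± 3.91 in allografts, 5.80 RPM ± 1.47 in isografts and 9.84 RPM ± 2.79 in normal corneas. The log2 difference was 0.53 (SE 0.37) for allografts against normal corneas, -0.66 (SE 0.37) for isografts against normal corneas and 1.19 (SE 0.37) for allografts against isografts. Both arms of miR-130b thus had the same order of group means, allografts above normal corneas above isografts.

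The arms of miR-301a followed another order, with isografts between allografts and normal corneas by mean. miR-301a-3p was at 1.09, 0.9996 and 2.09 RPM in allografts, 0.329, 0.9999 and 0.999 RPM in isografts and 0.363, 0.363 and 0.273 RPM in normal corneas. Every allograft exceeded every normal cornea, and isograft 12 alone among the isografts fell within the normal range. The whole group of normal corneas rests on 11 reads, against 46 reads in allografts and 26 in isografts. Mean levels were 1.39 RPM ± 0.605, 0.776 RPM ± 0.387 and 0.333 RPM ± 0.0524 in allografts, isografts and normal corneas. The allograft mean was 4.18 times the normal mean, and the log2(RPM + 1) differences were 0.82 for allografts and 0.39 for isografts against normal corneas. miR-301a-5p was at 3.27, 2.45 and 4.45 RPM in allografts, 0.987, 2.64 and 1.999 RPM in isografts and 1.36, 1.36 and 1.999 RPM in normal corneas. Allografts again lay above all normal corneas, at 2.15 times their mean, while isografts overlapped both groups, with a log2 difference of 0.12 against normal corneas.

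The remaining row with the family seed, miR-301b-3p, lies beside miR-130b and was not used to choose the members. It had 5, 8 and 7 reads in allografts, 2, 1 and 1 reads in isografts and 0, 1 and 1 reads in normal corneas. All allografts were above all other libraries, at 0.606 RPM ± 0.139, against 0.115 RPM ± 0.0426 in isografts and 0.0606 RPM ± 0.0525 in normal corneas. The exact permutation test gave two-sided p = 0.1 for allografts against either group, the smallest this design allows, and adjusted p = 0.3 over the 6 tests. miR-301b-5p had 3 reads in all allografts together, 1 in isografts and 0 in normal corneas, where 0 allows up to 0.273 RPM in a library.

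**Figure D2:**
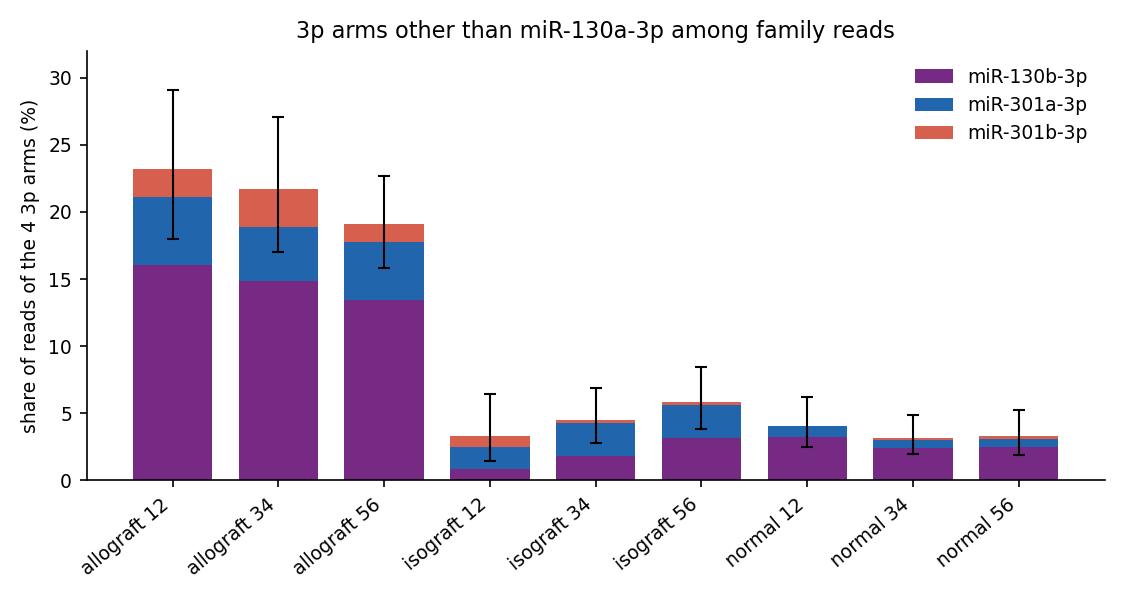
Share of the reads of miR-130a-3p, miR-130b-3p, miR-301a-3p and miR-301b-3p together that came from the 3 arms other than miR-130a-3p (vertical axis, percent) in each library. Stacked colours are the 3 miRNAs, and the error bar is the 95% exact binomial interval of their sum. The allografts sit between 19.1% and 23.2%, above the other 6 libraries, at 3.17% to 5.83%.

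The makeup of the family's 3p reads set the allografts apart from both other groups. Shares within a library do not depend on its RPM total. The 3p arms other than miR-130a-3p held 23.2%, 21.7% and 19.1% of the reads of these 4 arms in allografts 12, 34 and 56. The 95% exact binomial intervals were 18.0 to 29.1, 17.0 to 27.1 and 15.8 to 22.7. Isografts had 3.32%, 4.54% and 5.83%, and normal corneas had 4.07%, 3.17% and 3.29%, with no interval reaching above 8.43%. In allografts and normal corneas most of this came from miR-130b-3p. In isografts miR-301a-3p had the larger mean share, but from 26 reads against 24 of miR-130b-3p. Isograft 56 had the other order, at 2.47% and 3.14%. miR-130b-3p held 14.8% ± 1.29 in allografts, 1.93% ± 1.16 in isografts and 2.72% ± 0.472 in normal corneas (SD, n = 3 each). miR-301a-3p held 4.45% ± 0.554 in allografts, 2.21% ± 0.474 in isografts and 0.677% ± 0.122 in normal corneas. The summed level of the 4 arms was 31.7 RPM ± 14.7 in allografts, 33.5 RPM ± 11.8 in isografts and 49.6 RPM ± 6.74 in normal corneas, so miR-130a-3p set the family total in every group. The shares derive from values that chose the members and carry no test. Intervals cover counting error only.

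Calls were made in 1 fit over all miRNAs past the filter. It was a moderated linear model (limma) on log2(RPM + 1) of 281 miRNAs, with p-values adjusted by Benjamini-Hochberg and a threshold of 0.05. It called 47.3% of them for allografts against normal corneas (23.1% higher and 24.2% lower), 21.4% for isografts against normal corneas (16.7% higher and 4.63% lower) and 34.5% for allografts against isografts (13.5% higher and 21% lower). Of the 2 members in the fit, 1 was past the threshold for allografts against normal corneas (miR-130a-3p, lower) and 1 for allografts against isografts (miR-130b-5p, higher). For isografts against normal corneas 0 of 2 passed, with 0 at an unadjusted p under 0.05. On the recovered reads edgeR and DESeq2 each called 2, beside 114 and 119 of all 281 miRNAs. Since these contrasts chose the members, nothing is read from the counts. By overlap, 3 of the 5 members lay wholly above and 1 wholly below normal corneas in allografts, where 24.3% and 19.3% of the 606 detected miRNAs did so. In isografts 0 lay above and 1 below, against 17.3% and 7.43%, and 2 lay above isografts in allografts, against 12% of detected miRNAs, while 0 lay below, against 16.3%. The median difference of the 5 members was 0.75 for allografts against normal corneas, -0.49 for isografts against normal corneas and 0.63 for allografts against isografts, beside -0.14, 0.05 and -0.29 over all miRNAs tested.

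**Figure D3:**
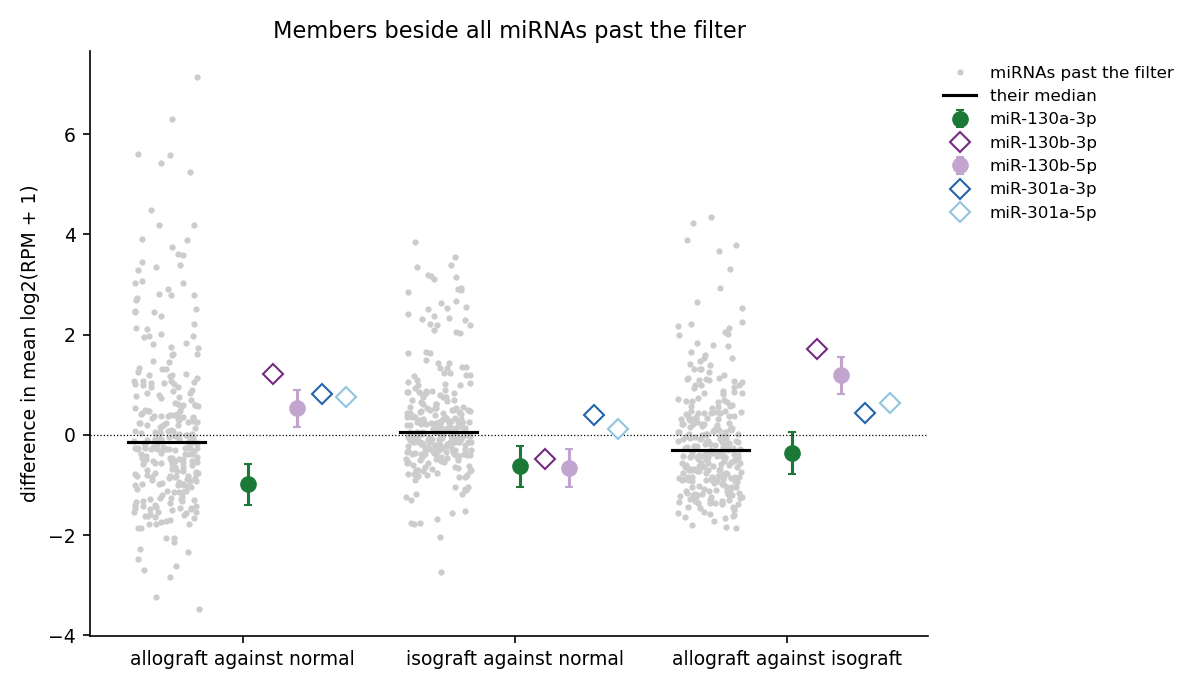
Difference in mean log2(RPM + 1) of each member (coloured symbols) beside the 281 miRNAs past the filter (grey points, median as a black line) in 3 comparisons. Filled circles with SE are members in the fit, and open diamonds are members below the filter. miR-130a-3p is below 0 in all 3 comparisons, and the other members are above 0 in both comparisons of allografts. Scaled to the sum of listed miRNAs, miR-130a-3p in allografts against isografts is at 0.03.

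Both calls changed when single libraries were left out. That of miR-130a-3p for allografts against normal corneas was lost without allograft 12 (log2 difference -0.75), without allograft 34 (-0.87), without normal 12 (-1.06), without normal 34 (-0.88), without normal 56 (-1.02), and, at the unchanged -0.99, without isograft 56. The call of miR-130b-5p for allografts against isografts was lost without allograft 12 (1.12) and without isograft 56 (1.04). Isograft 12 was the lowest isograft for 4 of the 5 members, and allograft 56 the highest allograft for all 5. Without isograft 12 the difference of isografts against normal corneas was -0.31 for miR-130a-3p, -0.23 for miR-130b-3p, -0.65 for miR-130b-5p, 0.59 for miR-301a-3p and 0.37 for miR-301a-5p. Without isograft 34 that of miR-301a-5p was -0.07.

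The values also moved with the scaling of the libraries. The median difference of all tested miRNAs for allografts against normal corneas was -0.14 in RPM, -0.02 after scaling by the median of ratios, -0.56 in RPM without miR-184 and 0.54 after scaling to the sum of listed miRNAs. The calls in that comparison were 65 higher and 68 lower in RPM, 51 higher and 104 lower without miR-184, and 142 higher and 44 lower after scaling to the listed sum. For isografts against normal corneas they were 47 higher and 13 lower in RPM, 66 and 49 by the median of ratios, 38 and 22 without miR-184, and 107 and 15 by the listed sum. For allografts against isografts they were 38 higher and 59 lower in RPM, and 86 and 55 by the listed sum. For allografts against normal corneas miR-130a-3p differed by -0.88 by the median of ratios, -1.42 without miR-184 and -0.29 by the listed sum. By the listed sum allografts and isografts both overlapped normal corneas in miR-130a-3p, and it was not called, while miR-130b-5p was called higher in allografts than in normal corneas (1.19). The difference of miR-130a-3p for allografts against isografts changed sign by the listed sum, to 0.03. Without miR-184, allografts overlapped normal corneas in miR-130b-5p (0.13), which was not called, and in miR-301a-5p (0.48). Each scaling multiplies all values of a library by the same factor. A difference relative to the median can therefore change only through the + 1, and the relative ranges do not check the scaling. Relative to the median of all tested miRNAs, miR-130a-3p lay at -0.86 to -0.84 for allografts against normal corneas under the 4 scalings. That median leaves out the members below the filter, whose shifts with scaling the + 1 of the log scale damps. Without miR-184, miR-301a-3p differed by 0.71, against 1.28 relative to the median. On the same relative scale miR-130b-3p lay 1.18 to 1.53 higher, miR-130b-5p 0.65 to 0.69 higher, miR-301a-3p 0.58 to 1.28 higher and miR-301a-5p 0.71 to 1.04 higher. For isografts against normal corneas the relative position was -0.68 to -0.66 for miR-130a-3p, -0.69 to -0.48 for miR-130b-3p, -0.71 to -0.69 for miR-130b-5p, 0.11 to 0.57 for miR-301a-3p and -0.04 to 0.16 for miR-301a-5p.

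**Figure D4:**
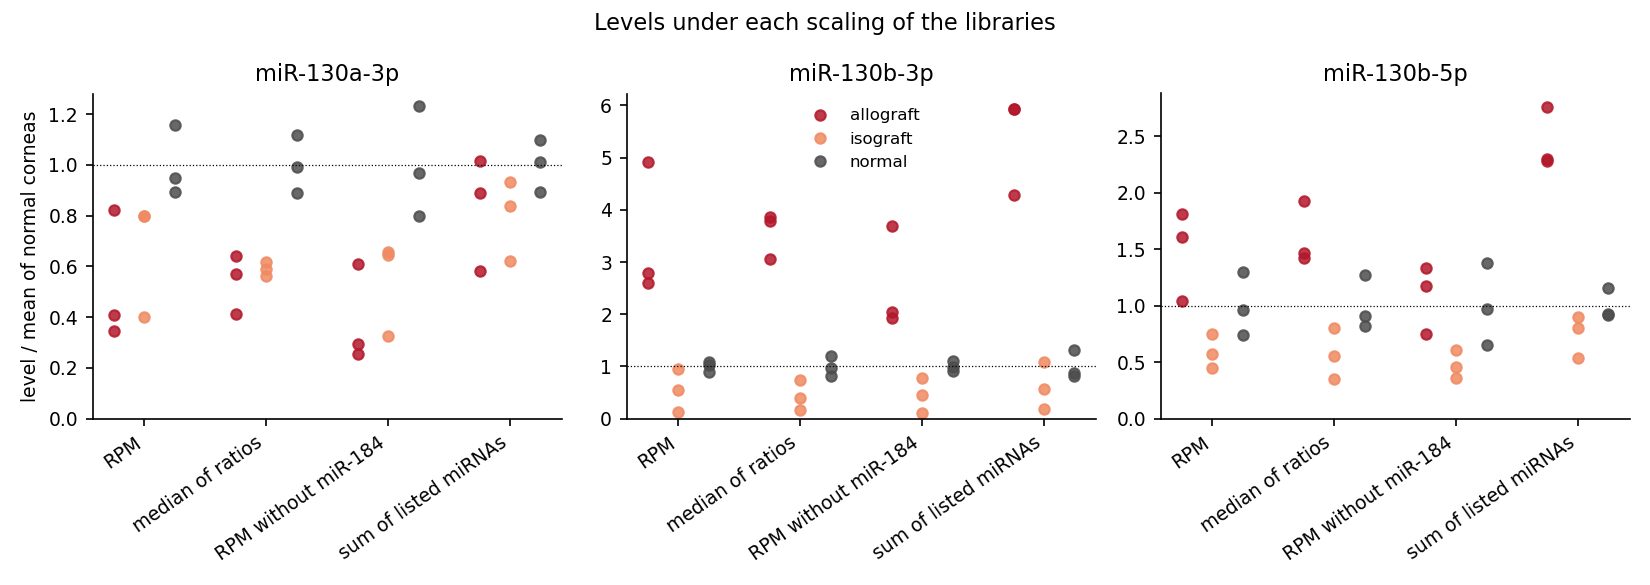
Level of 3 members in each library, divided by the mean of the normal corneas (vertical axis, linear, from 0), under 4 scalings of the libraries (horizontal axis). Points are libraries, coloured by group, and the dotted line is the normal mean. The allografts lie above all normal corneas for miR-130b-3p under every scaling shown, while for miR-130a-3p they overlap them when scaled to the sum of listed miRNAs.

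Within precursors, miR-130a gave mostly 3p reads, while miR-130b and miR-301a gave mostly 5p reads, the arm without the family seed. The 5p share of miR-130a was 4.47% ± 2.93 in allografts, 3.86% ± 2.10 in isografts and 4.13% ± 1.81 in normal corneas (SD, n = 3 each). For miR-130b it was 82.1%, 73.4% and 73.1% in allografts 12, 34 and 56, 97.1%, 91.0% and 77.8% in isografts, and 83.3%, 90.4% and 88.9% in normal corneas. Every allograft lay below every normal cornea, and isograft 56 lay among the allografts. The 95% exact binomial intervals of allograft 12 (76.2 to 87.0) and normal cornea 12 (74.4 to 90.2) overlapped. For miR-301a the 5p share was 71.4% ± 3.48 in allografts, 71.4% ± 4.28 in isografts and 82.0% ± 5.23 in normal corneas, from 158, 89 and 63 reads of both arms. Over all 197 precursors with both arms listed and at least 100 reads over the 9 libraries, 97 had more 5p than 3p reads, or 49.2%.

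**Figure D5:**
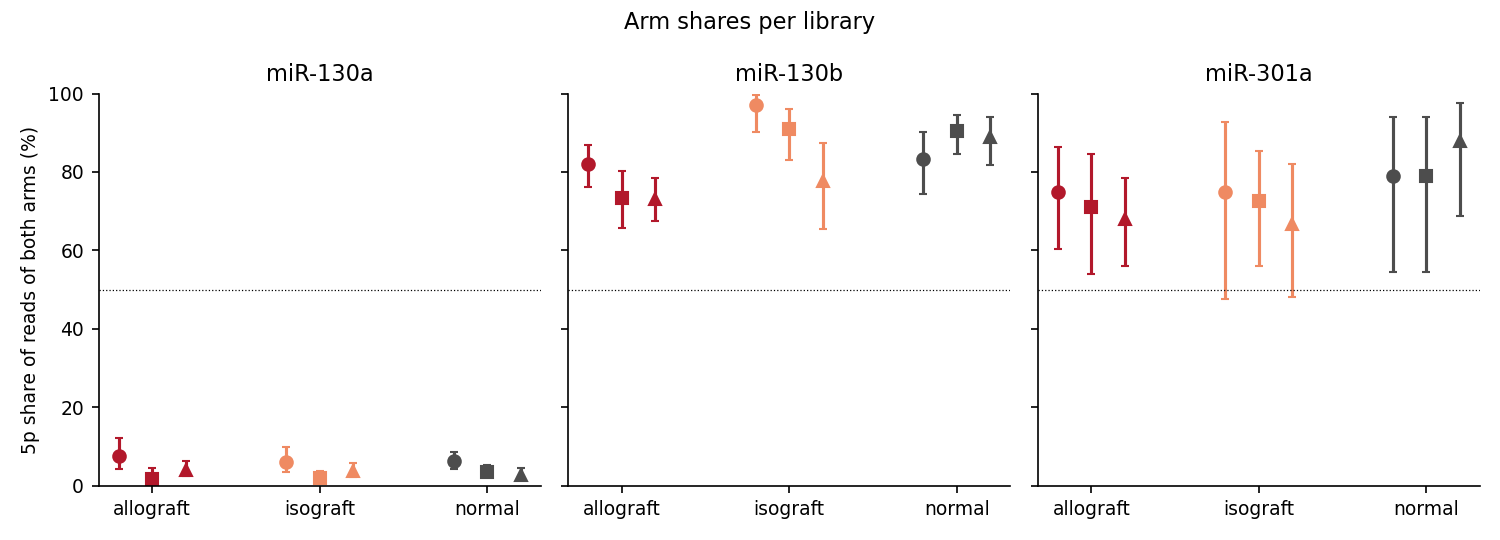
Share of the reads of both arms that came from the 5p arm (vertical axis, percent), per library, for 3 precursors. Symbols are libraries 12 (circle), 34 (square) and 56 (triangle), bars are 95% exact binomial intervals, and the dotted line is at 50%. miR-130a stays below 8% in every library, while miR-130b and miR-301a lie between 66.7% and 97.1%.

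Across the 9 libraries miR-130a-3p stood apart from the other members. On log2(RPM + 1), it had correlations of -0.12 with miR-130b-3p, -0.04 with miR-130b-5p, -0.19 with miR-301a-3p and -0.12 with miR-301a-5p. The arms of miR-130b correlated at 0.77 and those of miR-301a at 0.90, while miR-130a-5p, not a member, was left out. miR-130b-3p correlated at 0.81 with miR-301a-5p and 0.75 with miR-301a-3p. miR-130b-5p correlated at 0.43 with miR-301a-3p and 0.64 with miR-301a-5p. Correlations share the libraries, their totals and the group differences that chose the members, and are descriptions only. Among tested miRNAs the pattern of miR-130a-3p was most like that of miR-190a-5p (0.98), miR-499-5p (0.97) and miR-200a-3p (0.97), and most opposed to the myeloid miR-223-5p (-0.67). miR-200a-3p, of a family that maintains the epithelial state and is 1 of the 8 epithelial markers below, was at 729 RPM ± 511 in allografts, 1275 RPM ± 582 in isografts and 2774 RPM ± 397 in normal corneas. The pattern of miR-130b-5p was most like that of miR-3473 (0.90), miR-181a-1-3p (0.84) and miR-181b-1-3p (0.77), and most opposed to that of miR-493-5p (-0.82).

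Markers of several cell types moved with the groups. All 8 miRNAs listed for corneal epithelium were tested, and 7 were lower in allografts and 4 in isografts against normal corneas, with a median of -1.97 and -0.94. Their summed level was 37254 to 90969 RPM in allografts, 159213 to 193990 RPM in isografts and 271148 to 420587 RPM in normal corneas. The group means of miR-130a-3p in RPM had the same order, but its allografts and isografts overlapped. All 5 leukocyte miRNAs were higher in both kinds of graft, with a sum of 2293 to 3997 RPM in allografts, 156 to 327 RPM in isografts and 46.0 to 56.7 RPM in normal corneas. The pan-leukocyte miR-142-3p was at 525 RPM ± 124 in allografts, 31.2 RPM ± 18.4 in isografts and 2.82 RPM ± 1.18 in normal corneas. Of 9 miRNAs of proliferation-linked clusters 4 were higher in allografts against normal corneas and 0 in isografts by limma, with a median of 1.01 in allografts, and 3 of the 9 were higher in allografts than in isografts. All 9 had positive differences for allografts against normal corneas in RPM, and 6 of 9 did in RPM without miR-184. Their sum was 3245 to 5862 RPM in allografts, 2004 to 3661 RPM in isografts and 2411 to 3247 RPM in normal corneas. In the stroma and smooth muscle list 5 of 7 were higher in allografts and 6 of 7 in isografts, and in the endothelial and vessel growth list 5 of 8 were higher in each, against normal corneas. Their sums were 11397 to 21574 RPM in allografts, 17134 to 36103 RPM in isografts and 8192 to 10206 RPM in normal corneas for stroma, and 3550 to 5947, 2684 to 7776 and 1275 to 1580 RPM for endothelium. Of 2 red blood cell miRNAs tested 1 was lower in each kind of graft. The 3 listed summed to 17.5 to 1067 RPM in allografts, 13.6 to 181 RPM in isografts and 82.3 to 343 RPM in normal corneas. No marker of these lists was at 0 throughout a group. Their part in the differences of the miR-130 and miR-301 arms was not tested.

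The proliferation list holds miR-19a-3p and miR-19b-3p, which also belong to the next set. The seeds of miR-19 and of miR-148 with miR-152 share 6 bases with the family seed at a shift of 1 base, so they are given beside it.
miR-130a-3p: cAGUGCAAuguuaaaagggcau
miR-19a-3p: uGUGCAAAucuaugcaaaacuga
miR-148a-3p: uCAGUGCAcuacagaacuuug
Of these 5 seed neighbours, 2 were past the threshold for allografts against normal corneas, both higher, beside 23.1% of all tested miRNAs, and 0 were for isografts against normal corneas. Their median difference for allografts against normal corneas was 0.32 in RPM and -0.11 in RPM without miR-184, beside -0.14 and -0.56 for all tested miRNAs. miR-19a-3p, of the proliferation-linked miR-17-92 cluster, was at 19.7 RPM ± 6.16 in allografts, 6.44 RPM ± 3.10 in isografts and 4.30 RPM ± 1.09 in normal corneas (limma, allografts against normal corneas 1.95, SE 0.39, adjusted p = 0.000165). miR-19b-3p rose by 1.08 (SE 0.45, limma adjusted p = 0.048) in the same comparison. miR-148a-3p, at 18275 RPM ± 4511 in allografts, 22234 RPM ± 175 in isografts and 28223 RPM ± 3243 in normal corneas, did not pass (-0.65, SE 0.30, limma adjusted p = 0.078). miR-148b-3p (0.32, SE 0.34) and miR-152-3p (-0.58, SE 0.35) did not pass either. For allografts against isografts 1 of the 5 was past the threshold higher and 1 lower, beside 13.5% and 21% of all tested miRNAs. miR-19a-3p was higher (1.54, SE 0.39, limma adjusted p = 0.0036) and miR-152-3p lower (-1.02, SE 0.35, limma adjusted p = 0.023).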

How the data were processed

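Per the labels' protocols, Trizol RNA (1 ug a library) went into Illumina TruSeq small RNA libraries. The authors deposited 1 table of RPM values for 765 mature miRNAs in 9 columns, each matched to 1 library by its title. The tools bcl2fastq and BWA and the build rn6 were named per the submitters' processing notes. For trimming, miRNA annotation and multiply matching reads, the method is not given in the sources used here. RPM moved in fixed steps, so whole reads were recovered by dividing by the step (100% of values whole within 0.1 read). Depth was 11001459 to 12153889 reads. The filter kept 281 miRNAs that reached 5 RPM in 3 or more libraries, and these were fitted on log2(RPM + 1) with limma 3.58.1 (trend, R 4.3.3) over all 9 libraries, with 6 residual degrees of freedom and Benjamini-Hochberg adjustment. Members below the filter have differences of means without SE. Exact permutation tests were used for single rows. The alternatives were other pseudocounts, filters, scalings and limma settings, the title number as a block, left-out libraries, edgeR 4.0.16 and DESeq2 1.42.0. Members and lists were chosen with earlier results of these data known. Named miRNAs were the members, the same-seed and other-arm rows, 5 seed neighbours, the 3 most alike and 1 most opposed per tested member, and, of each marker list, at most the 2 most abundant. Sequences are from RefSeq, GRCr8. Of the 5 members 4 matched.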

Additional observations from a re-analysis of the deposited data

How the results depend on the processing

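Depth limits the low arms: miR-301a-3p rests on 11 reads in normal corneas. Of 327 recomputed differences of the 5 members in 3 comparisons, 192 moved from the reported value, counting any change however small. The others could not move, since settings such as the filters, the limma options or a left-out library of the uninvolved group return the same difference. Of the 15 values, 13 kept their sign in every alternative run. The exceptions were miR-301a-5p in isografts against normal corneas (-0.06 without miR-184 and -0.07 without isograft 34) and miR-130a-3p in allografts against isografts (0.03 by the sum of listed miRNAs). miRNAs past the threshold for isografts against normal corneas were 60, against 30 with a filter at 50 RPM, 115 by the median of ratios, 122 by the listed sum, 114 by edgeR and 119 by DESeq2, and 42 to 80 with 1 library left out. For allografts against normal corneas they were 133 of 281, against 63 with the 50 RPM filter and 101 to 164 with 1 library left out. Without a filter they were 186 of 606. Of the 281, 195 passed by the median of ratios, 186 by the listed sum, 193 by edgeR and 195 by DESeq2. For allografts against isografts they were 97, against 122 of 606 without a filter and 44 with the 50 RPM filter. They were 168 by the median of ratios, 163 by edgeR and 171 by DESeq2. Leaving out 1 library gave 52 (without allograft 34) to 147 (without isograft 12). Members past the threshold for isografts against normal corneas were 0, against 2 by the median of ratios, edgeR and DESeq2. For allografts against normal corneas they were 1, against 0 with a pseudocount of 5 RPM, 2 without a filter (miR-130b-3p and miR-301a-3p, higher, with miR-130a-3p no longer called), 2 by the median of ratios, edgeR and DESeq2, and 0 to 1 with 1 library left out. By the sum of listed miRNAs the count was 1, but the member was miR-130b-5p, higher. For allografts against isografts they were 1, against 2 without a filter and 0 to 1 with 1 library left out. Fewer miRNAs are tested at 50 RPM, and no member is; for the others the cause was not tested. Whether the title numbers pair the libraries is not known. Of 9 same-numbered pairs, 2 had deviations correlated above 0.1, with a range of -0.51 to 0.56. With 3 libraries a group, these correlations cannot decide it. With the number as a replicate block 66, 143 and 112 miRNAs were past the threshold, in the order given, and 2 of 9 libraries were closest to one of their own number.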
